A study of Mus musculus with 6 samples.

Results

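The genes described here are 33 genes of the integrated stress response in mouse alveolar macrophages, the resident phagocytes of the airspaces. They form a list of kinases, transcription factors, feedback genes and reported ATF4 targets, taken by symbol from a gene count table of 25664 symbols. All 33 were found in it, and 27 had enough counts to be tested. The table holds 6 libraries of macrophages sorted from lavage fluid, 3 from Vav1cre/+ Pex5fl/fl mice, called Pex5-deficient, and 3 from Pex5fl/fl mice, called control. Both groups carry the floxed Pex5 alleles, and only the first carries the Cre recombinase, which the Vav1 promoter drives in blood-forming cells and their descendants. No group carries the recombinase without floxed alleles, so effects of the recombinase and of Pex5 loss cannot be told apart. For strain, sex and age of the mice, nothing was found in the sources used here. Nothing says whether the replicates are separate mice, so p-values measure the spread between these samples, which may be technical.

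The integrated stress response starts with kinases that phosphorylate the translation initiation factor eIF2. Most protein synthesis then slows, while the messenger RNA of the transcription factor ATF4 is translated more, through short reading frames ahead of its coding sequence. ATF4, paired with C/EBP family proteins, binds composite C/EBP-ATF elements and drives genes of amino acid synthesis and transport, serine and one-carbon metabolism, and feedback inhibitors that restore translation. Since much of this control is translational, transcript counts show the targets more directly than the activity of the kinases or of ATF4. PEX5 is the cytosolic shuttle that recognises most enzymes destined for the peroxisome interior.

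Library totals ran from 13325609 to 19413838 counts, and 3 counts corresponded to 0.126 to 0.235 CPM, the count scaled to a common library size. Pex5-deficient replicate 2 stood apart, with a TMM scaling factor of 1.34 against 0.899 to 1.03 in the others. Pex5 itself measured 29.7 to 33.01 CPM in control and 29.6 to 36.3 CPM in Pex5-deficient libraries. The counts include exons that remain after recombination of a floxed allele, so these values do not check the genotype labels. The 10 alveolar macrophage markers were all detected and summed to 47177 to 64343 CPM of unscaled totals in control and 41338 to 65477 CPM in Pex5-deficient libraries. Chil3 alone measured 36105 to 48558 CPM in control and 34777 to 57478 CPM in Pex5-deficient libraries, so the sums say little about the other markers. Of these markers, Siglecf, Krt79 and Fabp1 were called lower in Pex5-deficient libraries. Uncalled, but lower in every Pex5-deficient library in unscaled CPM, were Ear2 (2441 to 4224 against 6900 to 10326 CPM), Itgax and Mrc1. Marco, Chil3, Pparg and Car4 overlapped between the groups.

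A feature of the genome that ATF4 targets are known for is the C/EBP-ATF element, and its core was searched as TGATGNAA on both strands of the 250 bases before each RefSeq start (GRCm38.p6). Promoters were in the RefSeq table for 29 members, all but Ppp1r15b, Eif4ebp1, Aldh1l2 and Slc7a5, and 6 of the 29 (20.7%) held the core. Among all 27025 genes with a promoter in the table, 1056 (3.91%) held it. The 30 bases around each match are shown for the members that hold it. Each is printed on the strand of its gene, with the matched core in capitals. TTGCATCA is the same core read on the other strand.
Chac1, chr2:119351038-119351067, plus strand: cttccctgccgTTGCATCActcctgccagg
Asns, chr6:7693214-7693243, minus strand: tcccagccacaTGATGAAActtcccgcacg
Slc7a11, chr3:50443651-50443680, minus strand: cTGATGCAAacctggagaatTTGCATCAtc
Nupr1, chr7:126625562-126625591, minus strand: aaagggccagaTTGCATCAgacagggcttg
Pycr1, chr11:120643833-120643862, minus strand: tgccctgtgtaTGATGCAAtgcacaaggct
Vldlr, chr19:27216809-27216838, plus strand: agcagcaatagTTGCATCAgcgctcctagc
The Slc7a11 window holds 2 cores in opposite orientation, beginning 66 and 47 bases before the start, and the Asns core begins 23 bases before it. A match is a description of the letters and not a measured binding site.

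Pex5-deficient macrophages had more transcript of Gdf15, a secreted stress cytokine, than control macrophages, and this was the 1 member called. Gdf15 measured 77.4, 53.8 and 56.5 CPM in Pex5-deficient replicates 1 to 3 and 19.6, 31.2 and 15.8 CPM in control replicates 1 to 3. The groups did not overlap, and the lowest Pex5-deficient library was well above the highest control library. This was a 2.80-fold rise, a log2 fold change of 1.49 ± 0.25 (SE, 3 libraries per group), with a 95% interval from 0.93 to 2.05 and adjusted p = 0.0192 by edgeR's quasi-likelihood test. Leaving out Pex5-deficient replicate 1 gave an adjusted p of 0.0682, and leaving out control replicate 1 gave 0.0978, the highest of 13 alternatives. The lowest was 1.65e-06, with scaling by library size alone. Gdf15 lies on chromosome 8 from 70629393 to 70632456 (GRCm38), shares no exon base with another gene and has no TGATGNAA core in its 2 RefSeq promoters. In these bulk samples, more cells of one type and more RNA per cell cannot be told apart.

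Of the 33 members, 27 passed the filter on low counts, 1 was called higher and 0 were called lower, with 0 lower also by DESeq2 and by limma-voom. Over all genes tested the test called 192 higher (1.74%) and 166 lower (1.51%). With an unadjusted p under 0.05, 11 of the 27 had higher values (40.7%) and 1, Eif4ebp1, had lower values, against 9.70% and 9.17% of all genes. The groups did not overlap for 9 members with higher values (33.3%) and 2 with lower values (7.41%), against 13.0% and 13.1% of all genes. 6 further members had an adjusted p between 0.05 and 0.1, all with higher values: Psat1, Atf4, Ddit3, Ppp1r15a, Trib3 and Chac1. With Gdf15 this made 7 of 27 (25.9%) under 0.1 and higher, and 0 lower, against 3.65% and 3.12% of all genes. The members were chosen with earlier results of these data known, so these shares are not independent of the data. The median log2 fold change of the 27 was 0.16, against -0.00077 over all genes tested, and it was 0.03 without control replicate 2. Chac1 reached the filter only through its Pex5-deficient libraries, so its place among the higher members is partly fixed by the filter.

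The count of members called moved with the tool and the scaling, and 5 members stood just past the threshold, at adjusted p = 0.0573 to 0.0641. DESeq2 called 7 members higher, namely Atf4, Chac1, Ddit3, Gdf15, Ppp1r15a, Psat1 and Trib3, and it called 3.57% of all genes higher and 3.29% lower. Scaling by library size alone called 6, Chac1, Gdf15, Ppp1r15a, Psat1, Slc7a11 and Trib3, with 2.62% of all genes called higher. That scaling moved the median of all genes to 0.17 and of the members to 0.34, and its calls over all genes split into 289 higher and 132 lower. With no filter on low counts 5 were called, Ddit3, Gdf15, Ppp1r15a, Psat1 and Trib3 (1.82% of all genes higher). By limma-voom, Gdf15 alone was called, with 1.50% of all genes higher and 1.44% lower.

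Leaving out single libraries also moved the count. When the library with the high scaling factor, Pex5-deficient replicate 2, was left out, 4 members were called, Ddit3, Gdf15, Phgdh and Trib3, and 2.77% of all genes were higher. Leaving out Pex5-deficient replicate 3 gave 2, Gdf15 and Ppp1r15a (1.16% of all genes higher). With Pex5-deficient replicate 1 or control replicate 1 left out, 0 members were called, where 0.577% and 0.338% of all genes were called higher. With control replicate 2 or 3 left out, Gdf15 alone was called (0.884% and 0.665% of all genes higher).

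**Figure D1:**
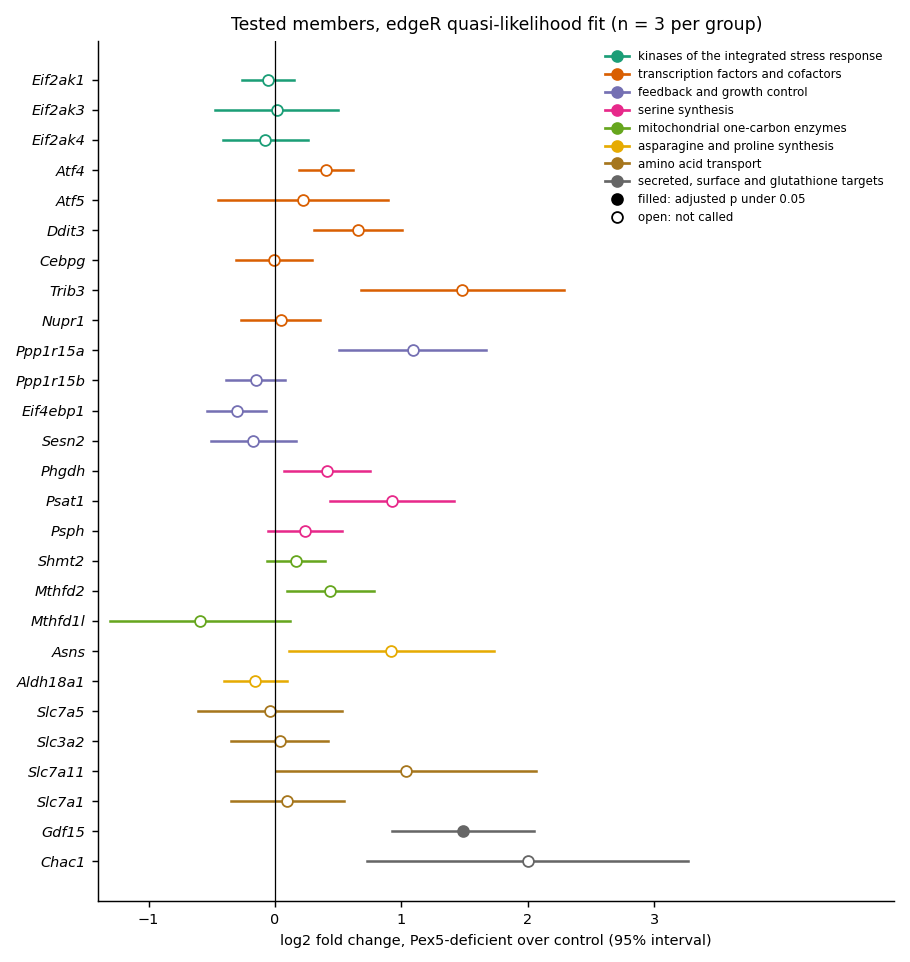
Log2 fold changes (Pex5-deficient over control) of the 27 tested members, coloured by role, with 95% intervals from edgeR's quasi-likelihood fit of 3 libraries per group. Gdf15, at 1.49, is the filled point, the kinases lie within 0.1 of 0, and Trib3, Ppp1r15a, Slc7a11 and Chac1 lie above 1 with wide intervals.

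The kinases did not differ detectably between the groups. Eif2ak1 encodes HRI, which senses heme shortage and signals from stressed mitochondria, Eif2ak3 encodes PERK of the endoplasmic reticulum, and Eif2ak4 encodes GCN2, which senses uncharged transfer RNA. Eif2ak1 measured 55.3, 54.9 and 51.0 CPM in Pex5-deficient and 55.1, 57.0 and 55.2 CPM in control replicates 1 to 3, and its log2 fold change had a 95% interval from -0.26 to 0.15. Eif2ak3 measured 6.49, 10.5 and 7.23 CPM against 7.74, 7.50 and 8.98 CPM (interval -0.47 to 0.50). Eif2ak4 measured 14.0, 13.4 and 10.7 CPM against 12.9, 12.8 and 14.4 CPM (interval -0.41 to 0.26). The groups overlapped for all 3 kinases. Calls were 0 by edgeR, by DESeq2 and by limma-voom, and 0 had an unadjusted p under 0.05. Other genes annotated on the opposite strand share 659 exon bases with Eif2ak1 and 485 with Eif2ak3, so part of their counts may belong to those genes.

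Among the 6 transcription factors and cofactors, Atf4, Ddit3 and Trib3 had higher values in every Pex5-deficient library than in any control library, yet none passed the threshold. Atf4, the central factor, measured 91.3, 91.5 and 84.8 CPM in Pex5-deficient and 66.6, 64.9 and 70.8 CPM in control replicates 1 to 3. Both groups were tight and the gap between them exceeded their spread. Atf4 differed by a log2 fold change of 0.40 ± 0.09 (adjusted p = 0.0595, range 0.0126 to 0.228 over 13 alternatives), a 1.32-fold difference. Atf4 lies on chromosome 15 from 80255184 to 80257541 and shares no exon bases or 100-base words with another gene.

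Ddit3 encodes CHOP, a C/EBP family factor induced by ATF4 that promotes cell death under lasting stress. It measured 18.6, 14.7 and 17.2 CPM in Pex5-deficient and 9.23, 11.9 and 10.9 CPM in control replicates 1 to 3, a log2 fold change of 0.65 ± 0.15 (adjusted p = 0.0595). Without Pex5-deficient replicate 2 the adjusted p was 0.0427. Ddit3 lies on chromosome 10 from 127290774 to 127296288, where 81 of its exon bases overlap Mars and Gm4189 on the opposite strand. Trib3, a pseudokinase that binds ATF4 and CHOP and dampens them, measured 14.5, 6.47 and 6.44 CPM against 3.52, 2.58 and 3.65 CPM. Pex5-deficient replicate 1 was far above the other Pex5-deficient libraries, and the log2 fold change of 1.48 ± 0.35 (adjusted p = 0.0641) was 0.996 without it. Without Pex5-deficient replicate 2 the adjusted p of Trib3 was 0.0431.

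The remaining factors overlapped between the groups. Atf5, a relative of ATF4 linked to the mitochondrial stress response, ranged from 4.58 to 7.27 CPM in Pex5-deficient and from 3.84 to 7.49 CPM in control libraries. Cebpg, a dimer partner of ATF4, ranged from 37.3 to 47.6 CPM and from 36.4 to 47.0 CPM. Nupr1, a small stress-induced chromatin protein whose promoter holds the core shown above, ranged from 24.6 to 25.7 CPM and from 21.6 to 29.6 CPM. Their log2 fold changes were 0.22 ± 0.29, -0.01 ± 0.13 and 0.04 ± 0.14.

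Of the feedback and growth control genes, Ppp1r15a had separate groups, while those of its relative Ppp1r15b overlapped. Ppp1r15a encodes GADD34, the inducible subunit that directs protein phosphatase 1 to eIF2 and ends the response, and Ppp1r15b encodes the constitutive subunit. Ppp1r15a measured 10.6, 7.86 and 5.88 CPM in Pex5-deficient and 3.13, 3.95 and 4.25 CPM in control replicates 1 to 3. All Pex5-deficient libraries were above all control libraries, and the log2 fold change was 1.09 ± 0.26 (adjusted p = 0.0595, and 0.042 without Pex5-deficient replicate 3). Ppp1r15b measured 76.3, 87.2 and 76.7 CPM against 94.1, 84.7 and 88.4 CPM, a log2 fold change of -0.15 ± 0.10 with overlapping groups. The difference between the changes of Ppp1r15a and Ppp1r15b was not tested. Ppp1r15b shares 640 exon bases with Gm26616 on the opposite strand, so part of its counts may belong to that gene.

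Eif4ebp1 encodes 4E-BP1, an inhibitor of cap-dependent translation. It had lower values in every Pex5-deficient library, 74.9, 63.6 and 64.8 CPM against 83.2, 81.5 and 86.0 CPM. Its log2 fold change was -0.30 ± 0.10 (adjusted p = 0.155) and was not called. Sesn2, an inhibitor of mTORC1 that senses leucine, ranged from 15.5 to 22.02 CPM in Pex5-deficient and 21.1 to 22.7 CPM in control libraries (-0.17 ± 0.15). Ddit4, the other mTORC1 inhibitor of the list, had 0 or 1 count in every library and was not tested.

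**Figure D2:**
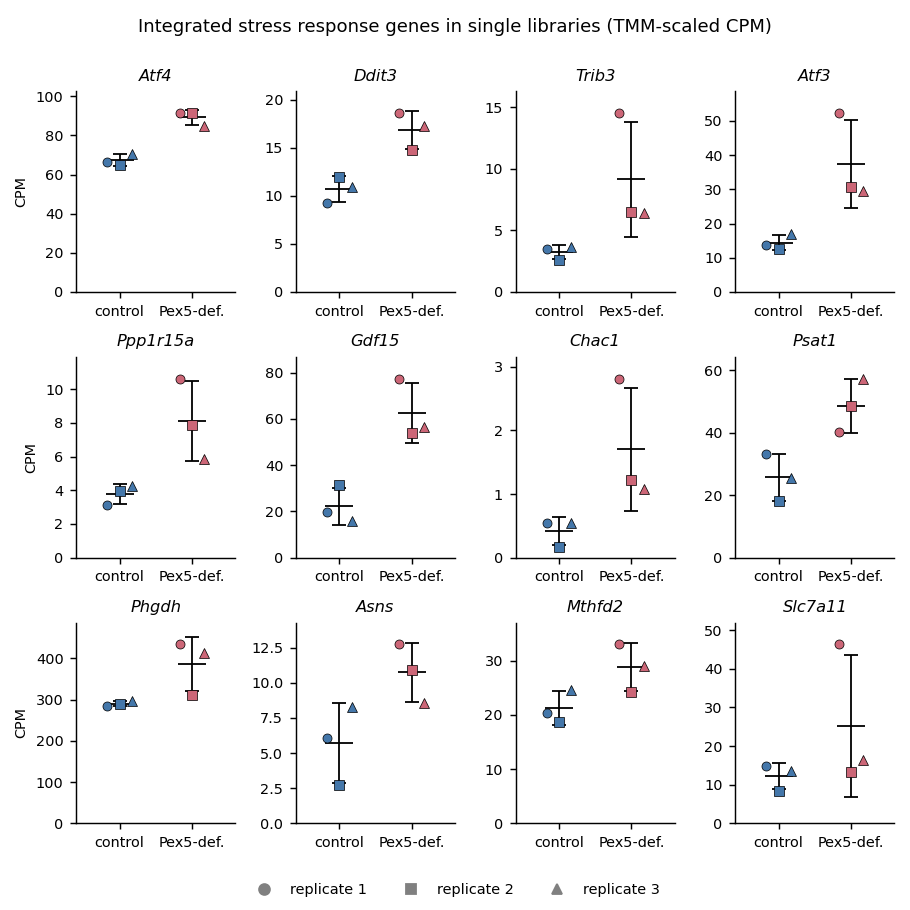
TMM-scaled CPM (vertical axes, from 0) of 11 members and of the related factor Atf3 in each library, with group means and SD as black lines (n = 3 per group) and replicates by marker shape. Gdf15, Atf4 and Ddit3 show separate groups, and in Trib3, Chac1 and Slc7a11 Pex5-deficient replicate 1 lies far above the other 2.

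Serine synthesis runs from a glycolytic intermediate through PHGDH, PSAT1 and PSPH, and all 3 of its enzymes had higher mean values in Pex5-deficient libraries, with 0 called by edgeR. Phgdh, the first enzyme, measured 435, 312 and 412 CPM in Pex5-deficient and 285, 289 and 297 CPM in control replicates 1 to 3. The control libraries lay close together and below all Pex5-deficient ones, of which replicate 2 was the nearest. Phgdh had a log2 fold change of 0.41 ± 0.15 (adjusted p = 0.185), and 0.56 with adjusted p = 0.0255 without Pex5-deficient replicate 2. Of the 100-base words of Phgdh, 37.3% also occur in 8 other annotated genes, so its counts are uncertain.

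Psat1, the aminotransferase of the second step, had the smallest adjusted p after Gdf15 among the members. It measured 40.1, 48.6 and 57.4 CPM in Pex5-deficient and 33.3, 18.2 and 25.7 CPM in control replicates 1 to 3. The groups did not overlap, although control replicate 1 came near Pex5-deficient replicate 1. The 1.90-fold difference, a log2 fold change of 0.93 ± 0.22, had adjusted p = 0.0573 (range 0.00271 to 0.14 over the alternatives). Psat1 lies on chromosome 19 from 15904678 to 15947337. Psph, the phosphatase of the last step, measured 19.5, 15.5 and 18.5 CPM against 15.02, 15.7 and 14.7 CPM (0.23 ± 0.13), with groups that overlapped through Pex5-deficient replicate 2. Psph shares 452 exon bases with Cct6a on the opposite strand, so part of its counts may belong to that gene. By DESeq2 1 of the 3 serine synthesis genes, Psat1, was called, and by limma-voom 0, while 2 had an unadjusted p under 0.05.

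The mitochondrial one-carbon enzymes carry the carbon unit of serine into folate. Mthfd2, the dehydrogenase-cyclohydrolase of the pathway, measured 33.01, 24.2 and 29.0 CPM in Pex5-deficient and 20.3, 18.6 and 24.6 CPM in control replicates 1 to 3. Its highest control library just exceeded the lowest Pex5-deficient one, and the log2 fold change was 0.44 ± 0.15 (adjusted p = 0.168). Shmt2, which splits serine into glycine and a one-carbon unit, ranged from 42.8 to 48.5 CPM against 37.7 to 43.5 CPM (0.16 ± 0.10). Mthfd1l, which releases formate, had the opposite order at a low level, 1.02, 1.26 and 1.41 CPM against 1.64, 1.49 and 2.498 CPM (-0.59 ± 0.31, adjusted p = 0.347). Aldh1l2, which oxidises mitochondrial formyl-folate, had 0 to 2 counts and was not tested. None of the 3 tested enzymes was called by edgeR, DESeq2 or limma-voom, and 1, Mthfd2, had an unadjusted p under 0.05.

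Asns makes asparagine and is a classical target of the amino acid response. Its promoter window is among those printed above. It measured 12.7, 10.9 and 8.53 CPM in Pex5-deficient and 6.10, 2.69 and 8.30 CPM in control replicates 1 to 3. The groups touched without overlapping, and control replicate 2 was the lowest library by far. Asns had a log2 fold change of 0.92 ± 0.36 (adjusted p = 0.21), which was 0.57 without control replicate 2. Aldh18a1, the first enzyme of proline synthesis, ranged from 31.1 to 35.4 CPM against 34.2 to 41.7 CPM (-0.16 ± 0.11). Pycr1, the last enzyme of that pathway, had 2 to 5 counts in each library and was not tested.

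Of the amino acid transporters, Slc7a11 had a large difference that rested on 1 library. It encodes xCT, which imports cystine for glutathione synthesis in exchange for glutamate. Slc7a11 measured 46.4, 13.2 and 16.3 CPM in Pex5-deficient and 14.9, 8.42 and 13.4 CPM in control replicates 1 to 3. Pex5-deficient replicate 1 was high, and the other 2 lay within or next to the control range. The log2 fold change of 1.03 ± 0.45 (adjusted p = 0.264) was 0.27 without Pex5-deficient replicate 1 (adjusted p = 0.676).

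Slc3a2, the heavy chain that xCT and other light chains share, measured 305, 197 and 218 CPM against 232, 227 and 242 CPM. Here too Pex5-deficient replicate 1 was the highest library, while the other 2 were below every control library. Its mean difference was small, 0.04 ± 0.17 on the log2 scale, and the sign turned without Pex5-deficient replicate 1 (-0.17). Slc7a5, the LAT1 light chain for large neutral amino acids, ranged from 6.33 to 12.7 CPM against 8.76 to 9.56 CPM, and Slc7a1, a carrier of arginine and lysine, from 6.33 to 9.12 CPM against 6.47 to 8.17 CPM. Their log2 fold changes were -0.04 ± 0.25 and 0.10 ± 0.20, and the groups overlapped for both. The glycine transporter gene Slc6a9 had 0 to 7 counts and was not tested. None of the 4 tested transporters was called by edgeR, DESeq2 or limma-voom, and 1, Slc7a11, had an unadjusted p under 0.05.

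**Figure D3:**
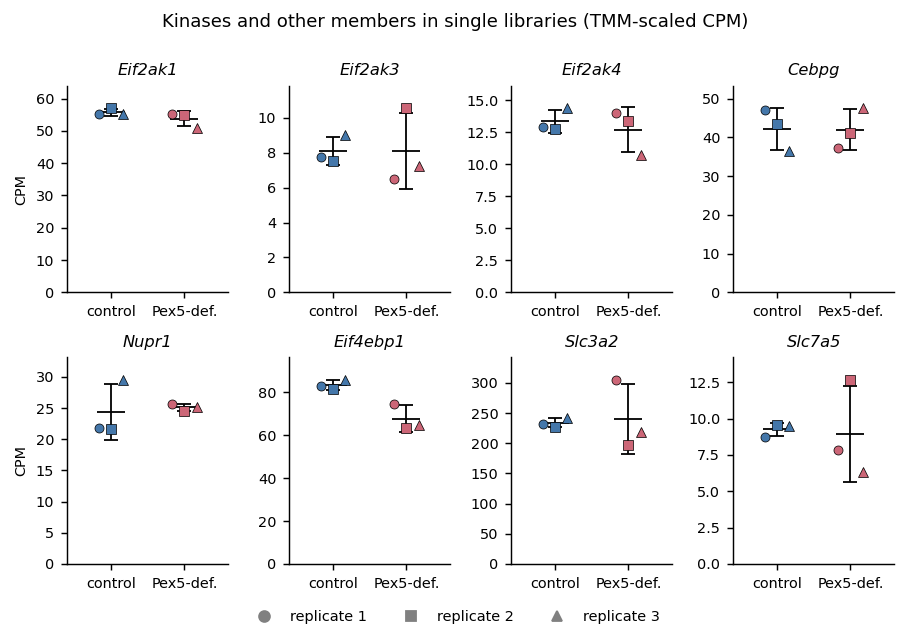
TMM-scaled CPM (vertical axes, from 0) of the 3 kinases and 5 further members in each library, with group means and SD as black lines (n = 3 per group). The groups overlap in each panel except Eif4ebp1, whose Pex5-deficient libraries at 63.6 to 74.9 CPM lie below control.

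Chac1, whose product degrades glutathione, had the largest fitted difference of the members at a very low level. It had 36, 29 and 19 counts in Pex5-deficient and 7, 3 and 8 counts in control replicates 1 to 3, or 2.82, 1.22 and 1.07 CPM against 0.548, 0.172 and 0.540 CPM. All Pex5-deficient libraries were above control. Chac1 had a log2 fold change of 1.999 ± 0.56 (adjusted p = 0.0968, range 0.00998 to 0.251 over 12 alternatives), and it was 1.49 without Pex5-deficient replicate 1. Stc2, a secreted glycoprotein, had 0 counts in all libraries, and Vldlr, a lipoprotein receptor, had 1 count in control replicate 3 and 0 elsewhere. Neither was tested. For a library with 0 counts, counting error alone allows a level of up to 0.126 to 0.235 CPM, depending on its depth.

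Within the Pex5-deficient group, replicate 1 most often had the highest value of a member. Of the 11 members with higher values at an unadjusted p under 0.05, 9 were highest in replicate 1, and of all 27 tested members 16 were. This order was not confined to the members. Hspa5, an endoplasmic reticulum chaperone gene, had it, at 837, 414 and 657 CPM in Pex5-deficient replicates 1 to 3. Calr of the same list had it too, at 746, 403 and 568 CPM. Herpud1, also of that list, was highest in replicate 3, at 100, 122 and 132 CPM. The same count was not made over all genes tested, so how common the order is was not measured. The 11 were also chosen for high Pex5-deficient values. On the log2 scale with 0.5 CPM added, replicate 1 lay 2.01 above the control mean for Trib3, 1.88 for Slc7a11, 1.85 for Chac1 and 1.78 for Gdf15. Replicates 2 and 3 lay 0.90 and 0.89 above it for Trib3, 0.10 and 0.40 for Slc7a11, 0.90 and 0.77 for Chac1, and 1.26 and 1.33 for Gdf15. Psat1 had another order, with 0.63 in replicate 1, 0.90 in replicate 2 and 1.14 in replicate 3. For Atf4 the 3 libraries were nearly level, at 0.43, 0.44 and 0.33.

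**Figure D4:**
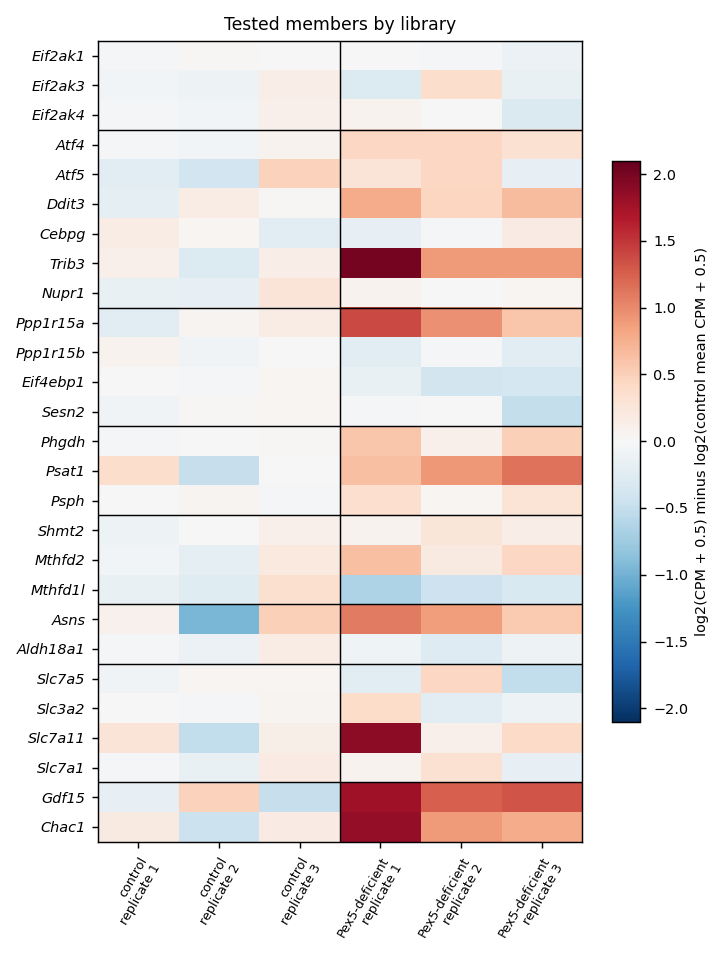
Difference of each library from the control mean, as log2(CPM + 0.5), for the 27 tested members (rows, lines separate roles) in the 6 libraries (columns). Pex5-deficient replicate 1 holds the darkest cells (Trib3 2.01, Slc7a11 1.88, Chac1 1.85), while the kinases are pale in all libraries.

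Between genes, levels of the members were compared as CPM per kilobase of merged exons. In control libraries the highest means were Phgdh at 117, Slc3a2 at 66.3, Eif4ebp1 at 38.1 and Atf4 at 28.6 CPM per kilobase, and no neighbours in this order overlapped. Gdf15 stood at 11.99 and Ppp1r15b at 15.9 CPM per kilobase, with ranges that overlapped. In Pex5-deficient libraries Phgdh stood at 155, Slc3a2 at 68.1, Atf4 at 37.8, Gdf15 at 33.8 and Eif4ebp1 at 30.9 CPM per kilobase. Gdf15 then ranged from 29.1 to 41.8 CPM per kilobase and overlapped both Atf4 and Eif4ebp1.

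Related genes outside the members were read from 8 lists with 123 tested genes, of which 2 rose and 0 fell, against 1.74% and 1.51% of all genes. Both were in the list of other reported ATF4 targets (14 tested, median log2 fold change 0.04). At an unadjusted p under 0.05, 10 of the 123 had higher values and 9 had lower values, against 9.70% and 9.17% of all genes. Atf3, a stress-induced factor downstream of ATF4, rose to 37.5 ± 12.9 CPM from 14.4 ± 2.23 CPM in control (mean ± SD, 3 libraries each). Its single values were 52.3, 30.6 and 29.5 CPM in Pex5-deficient and 13.8, 12.5 and 16.9 CPM in control replicates 1 to 3. As with Trib3, Pex5-deficient replicate 1 was the highest and no library overlapped. The difference was 1.37 ± 0.23 on the log2 scale (adjusted p = 0.0203), with adjusted p = 0.0978 without control replicate 1 and 0.0748 without control replicate 2.

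Got1, the cytosolic aspartate aminotransferase, rose to 27.4 ± 4.27 CPM from 16.5 ± 1.34 CPM in control, by 0.73 ± 0.14 on the log2 scale (adjusted p = 0.0307). Its adjusted p was 0.0891 and 0.0666 without Pex5-deficient replicates 1 and 3, and 0.13, 0.0674 and 0.102 without control replicates 1, 2 and 3. At an unadjusted p under 0.05 the same list held 2 genes with higher values, Atf3 and Got1, and 3 with lower values, Clic4 (-0.68), Lpin1 (-0.57) and Nucb2 (-0.34). With all libraries none of these 3 was called by edgeR, whereas DESeq2 called Clic4 and Lpin1, and edgeR called Lpin1 when Pex5-deficient replicate 2 was left out.

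Translation and charging genes had medians near that of all genes. Over all genes tested, 18.9% had an unadjusted p under 0.05, 9.70% with higher and 9.17% with lower values. Of 17 genes of eIF2 and upstream sensors 0 were called (median 0.06), although 2, Eif2s2 and Impact, had higher values at an unadjusted p under 0.05, and DESeq2 and limma-voom called 0. Eif2s2, the beta subunit of eIF2, had 0.43 ± 0.12 (adjusted p = 0.0914, and 0.0458 without Pex5-deficient replicate 2). Of 20 cytosolic aminoacyl-tRNA synthetases, which ATF4 is known to induce, 0 were called by edgeR, DESeq2 or limma-voom (median -0.06), and 3 had an unadjusted p under 0.05. The synthetase with the smallest p, Eprs, which charges glutamate and proline, had lower values (-0.24 ± 0.10), while the other 2, Cars (0.33) and Farsb (0.38), had higher values. Of 16 other amino acid transporters 0 were called by edgeR or limma-voom and 1, Slc43a2, lower by DESeq2 (-0.49 ± 0.12). In that list 2 had an unadjusted p under 0.05, both lower.

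The list labelled cytosolic folate and glycine pathway (13 tested, median -0.0014) also holds mitochondrial genes, namely Gcsh, Dld, Mthfd2l and Slc25a32. It had 0 calls by edgeR, DESeq2 or limma-voom and 1 unadjusted p under 0.05, that of Mthfs (0.56 ± 0.19), which recycles formyl-folate. Of all genes tested, 18.9% had an unadjusted p under 0.05. The 14 mitochondrial chaperones and proteases (median 0.08) had 0 calls by the same tools and 2 with unadjusted p under 0.05, Clpp (0.35 ± 0.11), a matrix protease, and Timm23. The 15 endoplasmic reticulum chaperones and sensors had the lowest median, -0.17, with 0 calls by the 3 tools and 1 unadjusted p under 0.05, that of Herpud1, a factor of protein degradation (-0.44 ± 0.14). Their median was near 0 without Pex5-deficient replicate 2, at 8.7e-07.

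**Figure D5:**
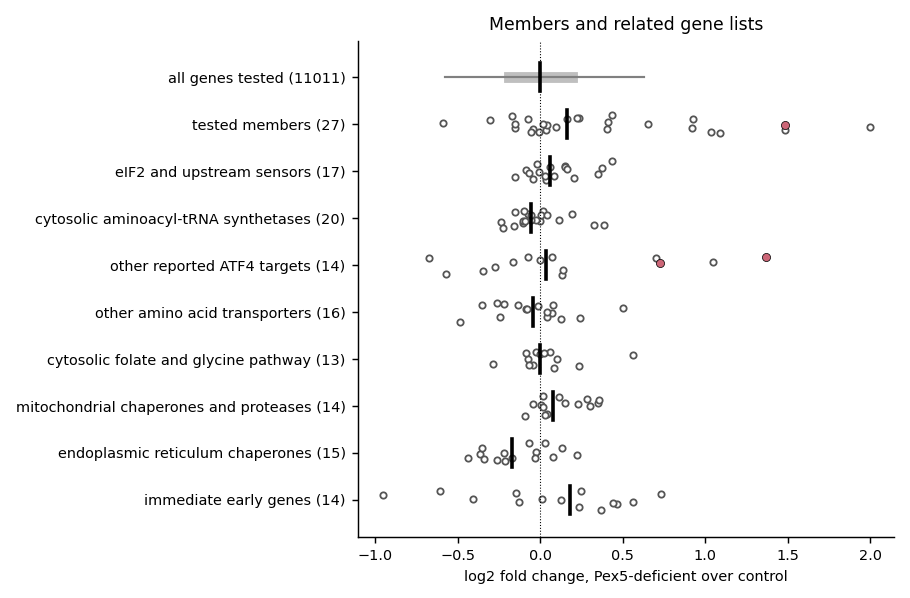
Log2 fold changes (Pex5-deficient over control) of the tested members and of 8 related lists, 1 point per gene, with the list median as a bar and called genes filled; for all 11011 genes the thin line spans the 5th to 95th percentile and the thick line the quartiles. The filled points are Gdf15 among the members and Atf3 and Got1 among other reported ATF4 targets.

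Signs of handling and markers of other cells were measured beside these results. Among 14 tested immediate early genes 0 were called by edgeR or limma-voom and 1, Btg2 (-0.41 ± 0.12), lower by DESeq2. An unadjusted p under 0.05 was found for Klf4, with higher values, and for Btg2 and Dusp1, with lower values, and the list's median was 0.18. The share of all genes with such a p was 18.9%. Klf4 was called by edgeR when Pex5-deficient replicate 3 was left out. Fos measured 190, 99.8 and 81.8 CPM in Pex5-deficient replicates 1 to 3, highest in replicate 1. Klf4 measured 18.2, 27.9 and 13.1 CPM there, highest in replicate 2. Atf3, called higher above, was counted among other reported ATF4 targets and not among the immediate early genes. The 16 immediate early genes summed to 509 to 697 CPM in control and 468 to 621 CPM in Pex5-deficient libraries, ranges that overlap. The 11 neutrophil markers summed to 77.7 to 102 CPM in control and 133 to 180 CPM of unscaled totals in Pex5-deficient libraries, with S100a8 and Cxcr2 called higher, while S100a9, Mmp9, Retnlg, Camp, Ngp and Ly6g were at 0 in every library. The part of these markers in the differences above was not tested. Markers of eosinophils were at 0 in all libraries, those of T, NK, B, dendritic, epithelial, endothelial and fibroblast cells summed to at most 2.81 CPM per list, and erythroid ones summed to at most 6.17 CPM, in Pex5-deficient replicate 2.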

How the data were processed

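Total RNA of 50000 sorted lavage macrophages per sample was sequenced as single-end reads, per the labels' protocols. The authors deposited whole-number gene counts, not normalized, in 1 table of 25664 symbols and 6 columns. STAR, featureCounts, R 4.3.2 and DESeq2 1.40.1 are named as tools, and GRCm38.p5 and mm10 as builds, per the submitters' processing notes. For the annotation and the strand setting nothing is given in the sources used here, and sense and antisense reads cannot be told apart.

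Genes were kept by edgeR's filterByExpr (minimum count 10, minimum total 15), which left 11011. Libraries were scaled by trimmed mean of M values (TMM), and CPM is on the scaled sizes unless marked otherwise. Groups were compared with edgeR's quasi-likelihood F test (edgeR 4.0.16, R 4.3.3). P-values are two-sided, were adjusted by Benjamini-Hochberg over the 11011 genes, and gave a call under 0.05. Standard errors and 95% intervals follow from the F statistics. Where no tool is named, an adjusted p comes from edgeR. The filter, TMM scaling and edgeR fit were also run on counts simulated with the dispersions of this fit, and no result of that is given here. Other tools and settings were not run on simulated counts. The alternatives were DESeq2 1.42.0, limma-voom (limma 3.58.1), 2 other scalings, 2 other filters, the replicate number as a block, and leaving out each library.

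The members and lists were chosen with earlier results of these data known. All 33 members are named. Of each related list, called genes are named, or else the gene with the smallest p, and Pex5 is given as the gene of the floxed allele. Clic4, Lpin1, Nucb2, Cars, Farsb, Klf4, Dusp1, Impact, Timm23, Hspa5, Calr and Fos were named after their values were seen. Promoter windows were to be printed for called members with a match to the searched motif, of which there were none. The windows shown are those of the members that hold a match. Lengths, positions, overlaps and words of 100 bases are from GENCODE mouse release 21 on GRCm38. The result of 1 marker list of other cells is not reported here.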

Additional observations from a re-analysis of the deposited data

How the results depend on the processing

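The 358 calls over all genes became 755 with DESeq2 and 83 with the replicate number as a block, and 76 to 523 when 1 library was left out. Calls of members, 1 in the reported fit, were 2 with the DESeq2 size factors, 6 with library size only, 5 without a filter, 7 with DESeq2, 0 with the replicate block and 0 to 4 when 1 library was left out. Calls in the related lists, 2 in the reported fit, were 6 with DESeq2, 0 with the replicate block and 0 to 4 when 1 library was left out. The cause of these differences was not tested. Libraries with the same number did not deviate together (correlations -0.21, -0.06 and -0.41), so the counts show no pairing by number. With 3 libraries per group, these correlations cannot exclude a pairing. 0 of 3 Pex5-deficient libraries correlated best with the control of its own number.

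Gdf15 kept its direction under all 13 alternatives and its call under 10 of them, with log2 fold changes from 1.31 to 1.82. Members that turned sign were all uncalled. With library size only, which raised the median of all genes, Eif2ak1 was 0.12, Eif2ak4 0.10, Cebpg 0.17, Ppp1r15b 0.033, Sesn2 0.020 and Slc7a5 0.19. Eif2ak3 was -0.015 with the replicate block, and Cebpg 1.51e-05 with DESeq2. Leaving out 1 library gave -0.22 to 0.14 for Eif2ak3, -0.15 to 0.034 for Eif2ak4, -0.10 to 0.074 for Cebpg, -0.037 to 0.23 for Nupr1, -0.39 to 0.16 for Slc7a5, -0.17 to 0.17 for Slc3a2, -0.038 to 0.22 for Slc7a1 and -0.039 to 0.10 for Pex5. Mthfd1l and Chac1 have no value at a mean of at least 5 CPM. Depth limits the 6 untested members, which had at most 7 counts in a library.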
